A study of Homo sapiens with 4 samples.

Results

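A set of 10 genes of RNA recognition was examined in NK-92 cells, a line of human natural killer cells cultured with interleukin 2. They are the RNA sensors DDX58, IFIH1 and DHX58, the adaptor MAVS, the ubiquitin ligase TRIM25, the interferon-inducible helicases ZNFX1, HELZ2, DDX60 and DDX60L, and the endosomal receptor TLR3. They were listed by name, with no threshold on a measured value but with earlier results of these data known, and all 10 were found among the 20323 genes of the table. Poly(A)-selected RNA was sequenced from 2 groups of NK-92 cells with 2 libraries each. NK scramble cells were transduced with lentivirus carrying a scrambled hairpin, and NK shADAR1 cells with lentivirus carrying a hairpin against ADAR1, the enzyme that turns adenosine into inosine in double-stranded RNA. Both groups grew in medium with 100 IU/ml IL-2 and were exposed to virus and polybrene, so neither group is untransduced. The comparison asks which transcripts differ once ADAR1 is lowered. The knockdown libraries are numbered 1 and 2 in the labels, read here as replicates. Such numbers also name the hairpins of the work, but the paper names only a single hairpin for the sequenced knockdown cells. The replicates are stated to be independent, but the p-values below measure only the spread between these 4 libraries.

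RIG-I (encoded by DDX58) and MDA5 (encoded by IFIH1) are helicases that bind viral or unedited cellular double-stranded RNA in the cytosol and pass the signal to MAVS on mitochondria, from where the kinases TBK1 and IKBKE activate IRF3 and IRF7. The interferon that follows acts through a transcription factor complex that includes STAT2 and IRF9, and most of these sensors are themselves induced by it. ADAR1 is best known in this pathway for editing cellular double-stranded RNA so that MDA5 does not respond to it.

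The libraries held 37881704 to 39960491 estimated counts each. After edgeR's filter on low counts, 11810 genes were tested between the groups with its quasi-likelihood test. On log2 CPM (TMM-scaled counts at a common depth), the replicates correlated at r = 0.981 in each group across genes, and libraries of different groups at r = 0.981 to 0.989, so replicates were no more alike than libraries of different groups. For ADAR, the targeted gene, NK scramble replicate 1 gave 655 CPM and replicate 2 gave 682 CPM, against 575 and 482 CPM for NK shADAR1 replicates 1 and 2. The knockdown libraries were both lower, with a log2 fold change of -0.34 (SE 0.20), but the difference did not pass the test (edgeR adjusted p = 1.00). All 10 natural killer markers were at an FPKM (fragments scaled by transcript length and depth) of at least 1 in the line. FCGR3A, which encodes CD16 and is usually described as absent from NK-92, was at 4.53 and 5.33 FPKM in NK scramble against 6.38 and 4.93 FPKM in NK shADAR1. Of 6 T cell markers only CD3E reached an FPKM of at least 1, while CD8A and CD8B were at 0. CD3E was far above that level, at 396 and 488 FPKM in NK scramble against 451 and 554 FPKM in NK shADAR1. Summed myeloid markers were at 4.94 to 5.34 FPKM in NK scramble against 6.42 to 6.72 FPKM in NK shADAR1. Most of this sum was ITGAM, the 1 of 5 at an FPKM of at least 1. It was at 4.92 and 4.51 FPKM in NK scramble against 6.06 and 5.76 FPKM in NK shADAR1. CD14, LYZ and FCN1 were at no more than 3 counts in any library. Of the B cell markers, MS4A1 was at no more than 3 counts in any library, and CD79A was at 1.23 and 0.501 FPKM in NK scramble against 2.36 and 0.792 FPKM in NK shADAR1. Whether any cells other than NK-92 were present, and had a part in the results below, was not tested.

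No sensor or helicase gene passed the test. Of the 10 genes, 9 passed the filter on low counts and 0 were called at an adjusted p under 0.05 with a fold change of 1.5 or more, against 0 of all 11810 genes (0.0%). DESeq2 also called 0 genes. Before adjustment, 2 of the 9 had a p under 0.05 (HELZ2 and DHX58), both lower in NK shADAR1, where 2.48% of all tested genes had such a p in either direction and 0.779% in the lower direction. By DESeq2, 3 of the 9 did (DHX58, IFIH1 and TRIM25), against 1.85% of all genes. The fitted value was below 0 for 7 of the 9 genes and for 50.0% of all tested genes, and the median log2 fold change was -0.41 over the 9 genes and 0.000028 over all tested genes. In 6 of the 9 genes (DDX58, IFIH1, DHX58, TRIM25, ZNFX1 and HELZ2) both NK shADAR1 libraries were below both NK scramble libraries, which held for 12.6% of all tested genes. The groups overlapped for MAVS, DDX60 and TLR3. In bulk RNA, fewer cells that express a gene and less RNA per cell cannot be told apart. With 2 libraries against 2, an exact two-sided permutation test cannot go below p = 0.333, so no such test was used.

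Much of this difference stood in 1 library. Of the 9 tested genes, 7 had their lowest CPM of the 4 libraries in NK shADAR1 replicate 2, where 21.1% of all tested genes did. The same 7 of 9 were lower in NK shADAR1 replicate 2 than in replicate 1, against 50.6% of all genes, with a median log2 difference over the 9 of -0.60. Between the NK scramble replicates, 5 of 9 were lower in replicate 2, against 49.7% of all genes, with a median of -0.11. Without NK shADAR1 replicate 2 the median log2 fold change of the 9 was -0.19 and 0 of the 9 had an unadjusted p under 0.05, against 5.69% of all genes tested in that fit. Without NK shADAR1 replicate 1 it was -0.71 and 5 of the 9 had one, against 1.69% of all genes. Without NK scramble replicate 2, 4 of the 9 did, against 4.37%, and without NK scramble replicate 1, 1 did, against 3.8%. In these fits the lone library of a group is assumed to vary like those of the other group. ADAR was likewise lowest in NK shADAR1 replicate 2, and the part of the depth of knockdown in these differences was not tested.

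**Figure D1:**
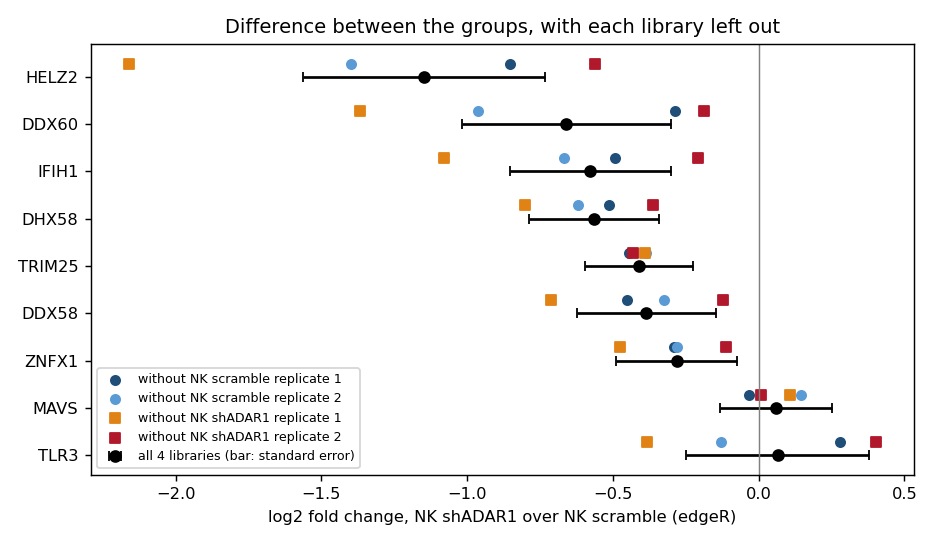
The log2 fold change of each of the 9 tested genes, NK shADAR1 over NK scramble from edgeR, with its standard error (black) and, just above it, the value with each library left out (circles for an NK scramble library, squares for an NK shADAR1 library). Leaving out NK shADAR1 replicate 1 moves HELZ2 to -2.16 and leaving out replicate 2 moves it to -0.56, while TRIM25 lies between -0.44 and -0.39 in all 4.

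Interferon-stimulated response elements repeat the letters GAAA with a short spacer, so the promoters were searched for GAAANNGAAA and GAAANGAAA on both strands (reverse complements TTTCNNTTTC and TTTCNTTTC). These spacings were chosen after the promoter sequences had been read. The windows run from 250 bases before to 50 bases after the start of a gene in RefSeq (GRCh38.p14), and 8 of the 10 genes matched one, all but DHX58 and ZNFX1. The first form was in 4 of the 8 genes (IFIH1, DDX60, DDX60L and TLR3) and in 3.57% of all 35116 windows, and the second was also in 4 of the 8 (DDX58, TRIM25, DDX60 and DDX60L) and in 3.12% of windows. Either form was in 6 of the 8 genes and in 6.4% of windows. The 8 genes hold 9 windows, so a share of genes and a share of windows are unlike measures. With the spacings chosen after reading, these shares are a description only. Neither was in the windows of MAVS and HELZ2. In DDX60 and DDX60L a match to the shorter form overlaps one to the longer form. The match nearest to the start in each of the 6 genes is printed below on the strand of the gene with its letters in capitals, to show where the letters lie and how they differ between the genes that hold them. They are reference sequence and were not read in NK-92 cells. The lines are given in the order of the genes' roles.
DDX58, chr9:32526366-32526424, minus strand: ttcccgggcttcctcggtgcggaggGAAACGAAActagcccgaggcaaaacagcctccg
IFIH1, chr2:162318671-162318730, minus strand: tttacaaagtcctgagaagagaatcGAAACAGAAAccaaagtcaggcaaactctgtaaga
TRIM25, chr17:56914020-56914077, minus strand: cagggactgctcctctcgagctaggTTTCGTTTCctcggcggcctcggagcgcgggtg
DDX60, chr4:168318771-168318830, minus strand: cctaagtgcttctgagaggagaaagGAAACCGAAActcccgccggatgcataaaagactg
DDX60L, chr4:168480508-168480567, minus strand: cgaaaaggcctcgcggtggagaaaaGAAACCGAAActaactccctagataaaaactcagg
TLR3, chr4:186069127-186069185, plus strand: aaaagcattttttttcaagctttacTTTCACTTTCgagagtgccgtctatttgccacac

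The match lies 194 bases before the start in DDX58, 11 bases before it in IFIH1, 43 bases before it in DDX60 and 40 bases before it in DDX60L, and it spans the start in TRIM25 and TLR3. DDX60 and DDX60L carry the same 10 letters, GAAACCGAAA, at nearly the same distance, although only DDX60 was found at more than 1 count per library. A match is a description of the letters and does not show that a factor binds there.

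Per unit of transcript length, TRIM25 was the most abundant of the 10 genes at a mean of 33.9 FPKM over the 4 libraries. ZNFX1, HELZ2, DHX58 and MAVS followed at 11.6, 11.5, 11.4 and 11.3 FPKM, then IFIH1 at 9.06, DDX58 at 5.90, DDX60 at 3.89 and TLR3 at 3.56 FPKM. DDX60L was close to 0. In this order only TRIM25 and ZNFX1, and TLR3 and DDX60L, had ranges over the libraries that did not overlap, so most neighbours in the order were not separated beyond their spread. The order of the means also differed between the groups. In NK scramble the means were 15.7 ± 4.10 FPKM for HELZ2, 13.6 ± 0.808 for DHX58, 12.6 ± 0.170 for ZNFX1 and 11.1 ± 0.776 for MAVS (SD, n = 2 each). In NK shADAR1 they ran the other way, at 7.24 ± 5.47 FPKM for HELZ2, 9.13 ± 2.31 for DHX58, 10.6 ± 2.31 for ZNFX1 and 11.6 ± 0.0099 for MAVS. IFIH1 was nevertheless above DDX58 in 4 of 4 libraries. Summed over the 10 genes, the level was 121.9 and 111.6 FPKM in NK scramble against 101.1 and 73.5 FPKM in NK shADAR1.

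**Figure D2:**
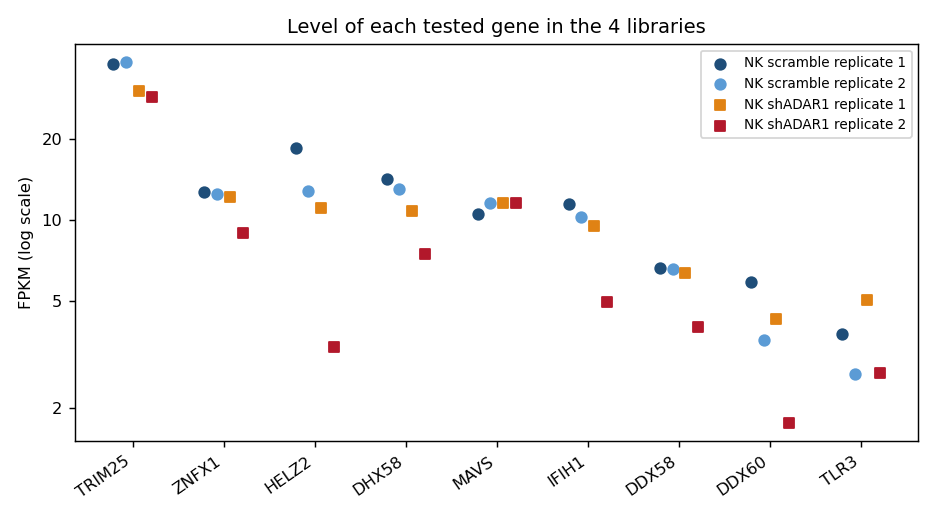
FPKM on a log axis of the 9 tested genes in each of the 4 libraries, ordered by mean level, with NK scramble as circles and NK shADAR1 as squares. TRIM25 stands above the others in every library, and HELZ2 runs from 18.6 FPKM in NK scramble replicate 1 down to 3.37 FPKM in NK shADAR1 replicate 2.

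Among the sensors, DDX58 (chr9:32455705-32526324, minus strand, GENCODE 29 on GRCh38, as for all gene positions here) encodes RIG-I, which recognises RNA with a 5′ triphosphate. Its level was 28.1 CPM in replicate 1 and 30.7 CPM in replicate 2 of NK scramble, against 27.1 and 17.9 CPM in replicates 1 and 2 of NK shADAR1, the order in which all pairs of values are given. The groups did not overlap, but NK shADAR1 replicate 1 lay just under NK scramble and only replicate 2 stood apart. This gave a log2 fold change of -0.39 (SE 0.24, unadjusted p = 0.136, adjusted p = 1.00), and it was -0.71 without NK shADAR1 replicate 1 and -0.12 without replicate 2.

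IFIH1 (chr2:162267079-162318703, minus strand) encodes MDA5, which binds long double-stranded RNA. It had 37.3 and 33.1 CPM in NK scramble against 30.5 and 16.7 CPM in NK shADAR1. Both knockdown libraries were lower, replicate 2 by far the more. The means were 35.2 ± 2.99 CPM and 23.6 ± 9.80 CPM (SD, n = 2 each). Their log2 fold change was -0.58 (SE 0.28, unadjusted p = 0.0622, adjusted p = 1.00), with -1.08 without NK shADAR1 replicate 1 and -0.21 without replicate 2. Within a library, the ratio of IFIH1 to DDX58 in FPKM was 1.73 and 1.57 in NK scramble against 1.49 and 1.24 in NK shADAR1.

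DHX58 (chr17:42101404-42112733, minus strand) encodes LGP2, a relative of RIG-I and MDA5 that lacks their signalling domains and modulates both. It was at 28.6 and 26.5 CPM in NK scramble against 21.5 and 15.8 CPM in NK shADAR1. The groups were apart, and here replicate 1 of the knockdown was also clearly below the controls, at 77.9% of the NK scramble mean. The log2 fold change was -0.56 (SE 0.22, unadjusted p = 0.0296, adjusted p = 1.00), and leaving out 1 library at a time gave -0.80 to -0.36, the latter without NK shADAR1 replicate 2.

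TLR3 (chr4:186069152-186088069, plus strand) is the receptor for double-stranded RNA in endosomes and signals through TICAM1 instead of MAVS. It had 9.44 and 7.13 CPM in NK scramble against 11.0 and 6.35 CPM in NK shADAR1. The knockdown libraries held both the highest and the lowest value, so the groups overlapped. Its log2 fold change was 0.07 (SE 0.31, unadjusted p = 0.839), and it was below 0 without NK scramble replicate 2 (-0.13) or NK shADAR1 replicate 1 (-0.38).

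MAVS (chr20:3846799-3876123, plus strand), the mitochondrial adaptor shared by RIG-I and MDA5, was at 122 and 138 CPM in NK scramble against 131 and 140 CPM in NK shADAR1. The values interleaved, and its log2 fold change was 0.06 (SE 0.19, unadjusted p = 0.765), with -0.03 without NK scramble replicate 1. Its spread between replicates was small in both groups. NK shADAR1 replicate 2, the library in which most of the sensors were lowest, held its highest CPM. In FPKM that library was at 11.59, just below the 11.61 of NK scramble replicate 2. Set against MAVS in the same library, IFIH1 in FPKM was 1.09 and 0.887 times its level in NK scramble against 0.816 and 0.428 times in NK shADAR1. The corresponding ratios of DDX58 to MAVS were 0.633 and 0.566 in NK scramble against 0.548 and 0.347 in NK shADAR1. Of the 50-base words of the longest MAVS transcript, 1.8% also occur in transcripts of other genes.

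TRIM25 (chr17:56836387-56914080, minus strand), the ubiquitin ligase known for promoting RIG-I signalling, differed from the sensors in how even its replicates were. It was at 214 and 223 CPM in NK scramble against 162 and 167 CPM in NK shADAR1. The 2 libraries of each group lay close together and the groups were well apart. The knockdown libraries stood at 74.2% and 76.2% of the NK scramble mean. The log2 fold change was -0.41 (SE 0.19, unadjusted p = 0.0509, adjusted p = 1.00), and the range with 1 library left out was -0.44 to -0.39. Exons of TRIM25 overlap those of C17orf67 on the same strand over 132 bases and those of DGKE and the antisense gene AC015912.1 on the opposite strand over 80 and 538 bases, out of 9501 exonic bases. Whether the counting used strand is not given in the sources used here, so reads from these overlaps cannot be assigned.

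**Figure D3:**
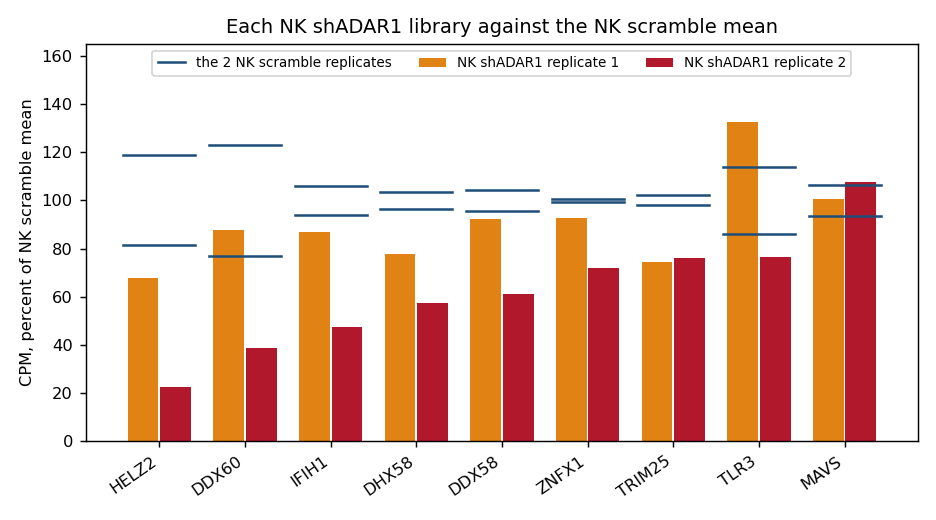
CPM of the 2 NK shADAR1 libraries as a percentage of the NK scramble mean of each gene (bars, from 0), with the 2 NK scramble replicates as lines. HELZ2 stands at 67.9% and 22.3% in NK shADAR1 replicates 1 and 2, while TRIM25 stands at 74.2% and 76.2%.

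HELZ2 (chr20:63558086-63574239, minus strand) encodes a large interferon-inducible helicase that also acts as a co-activator of nuclear receptors. It had the largest difference of the 9 tested genes. It was at 178 and 122 CPM in NK scramble against 102 and 33.5 CPM in NK shADAR1. Both knockdown libraries were below both controls, but on the log2 scale replicate 2 differed from replicate 1 by -0.55 in NK scramble and by -1.60 in NK shADAR1. The means were 150.1 ± 39.8 CPM and 67.7 ± 48.4 CPM (SD, n = 2 each). NK scramble was 2.22 times NK shADAR1 by these means. By edgeR the log2 fold change was -1.15 (SE 0.42, unadjusted p = 0.0196, adjusted p = 1.00), while DESeq2 gave -1.16 with an unadjusted p of 0.136. Without NK shADAR1 replicate 1 it was -2.16 with an adjusted p of 0.0124 (edgeR), which passed the test. It was -0.56 without NK shADAR1 replicate 2, where the adjusted p was 0.946. Relative to ZNFX1 in the same library, HELZ2 in FPKM was at 1.46 and 1.02 in NK scramble against 0.912 and 0.378 in NK shADAR1.

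ZNFX1 (chr20:49237946-49278426, minus strand), a helicase reported to sense viral RNA at mitochondria, was at 90.3 and 91.2 CPM in NK scramble against 84.1 and 65.2 CPM in NK shADAR1. The controls were nearly equal and both knockdown libraries lay below them, replicate 1 only slightly. Its log2 fold change was -0.28 (SE 0.21, unadjusted p = 0.204, adjusted p = 1.00), with -0.48 without NK shADAR1 replicate 1 and -0.11 without replicate 2. Its exons overlap those of DDX27 and ZFAS1 on the opposite strand over 203 and 249 of its 9340 exonic bases, with the same limit as for TRIM25.

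DDX60 (chr4:168216293-168318807, minus strand), a helicase described as a helper of RIG-I-like receptors, was at 34.9 and 21.8 CPM in NK scramble against 24.9 and 11.0 CPM in NK shADAR1. NK shADAR1 replicate 1 lay between the 2 controls, so the groups overlapped. This gave a log2 fold change of -0.66 (SE 0.36, unadjusted p = 0.0947, adjusted p = 1.00), with -1.37 without NK shADAR1 replicate 1, -0.19 without NK shADAR1 replicate 2 and -0.29 without NK scramble replicate 1.

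Its neighbour and close paralogue DDX60L (chr4:168356735-168537786, minus strand) lies 37927 bases away with 0 protein-coding genes between them. It had 0 counts in both NK scramble libraries and 1 count in each NK shADAR1 library, and did not pass the filter. In NK scramble a count of 0 allows up to 3 counts per library, or 0.0751 to 0.0759 CPM before TMM scaling, for counting error only. The 1 count of each NK shADAR1 library lies within that bound, so no difference was detectable. The pair share 42 of the 6022 50-base words of the longest DDX60 transcript (0.697%), so most reads of this length could be told apart, though how the authors' counting split the rest is not given.

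Other genes of the pathway were followed in lists. Of 44 regulators of RIG-I and MDA5, 40 were tested and 0 had an unadjusted p under 0.05 by edgeR, against 2.48% of all tested genes. The log2 fold changes of the 40 lay between -0.34 and 0.39 with a median of -0.04. Both knockdown libraries were below both controls for 7 of the 40 (17.5%), against 12.6% of all tested genes. They were above both controls for 3, a direction for which no share over all genes was taken. TRIM14, which acts as a scaffold at MAVS, was at 199 and 184 CPM in NK scramble against 148 and 155 CPM in NK shADAR1 (log2 fold change -0.34, SE 0.19, unadjusted p = 0.0984). MEX3C, a ubiquitin ligase that acts on RIG-I, was at 173 and 201 CPM against 139 and 162 CPM. PRKCA, a kinase that phosphorylates RIG-I, was at 122 and 182 CPM in NK scramble against 202 and 196 CPM in NK shADAR1, and DHX15, an RNA helicase and co-sensor, at 147 and 133 CPM against 176 and 149 CPM. CSNK2B, among the most abundant of them by FPKM, had a log2 fold change of -0.0024.

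Of 56 genes of MAVS adaptors and kinases, 54 were tested, with a median log2 fold change of -0.05. Only 1 of the 54 had an unadjusted p under 0.05 by edgeR, against 2.48% of all tested genes. That gene was USP18, an interferon-induced protease that removes ISG15 and restrains the interferon receptor. It was at 37.5 and 39.3 CPM in NK scramble against 21.6 and 15.5 CPM in NK shADAR1, clearly apart, with a log2 fold change of -1.05 (SE 0.22, unadjusted p = 0.00084, adjusted p = 1.00). IRF7, the interferon-inducible factor that amplifies interferon transcription, varied more than any sensor. It was at 75.9 and 38.4 CPM in NK scramble against 39.2 and 5.94 CPM in NK shADAR1, and the groups overlapped (log2 fold change -1.34, SE 0.63, unadjusted p = 0.0599). IFIT3, an interferon-induced protein that bridges MAVS and TBK1, was at 47.4 and 45.6 CPM against 42.7 and 13.0 CPM, again with the low value in NK shADAR1 replicate 2. TRIM21, a ubiquitin ligase and antibody receptor of the cytosol, was even within groups like TRIM25, at 38.5 and 39.6 CPM against 28.0 and 30.0 CPM (log2 fold change -0.43, SE 0.19, unadjusted p = 0.0512). Of the factor and kinases that act directly below MAVS, IRF3 and TBK1 overlapped between the groups and IKBKE was higher in both knockdown libraries. IRF3 was at 106 and 93.4 CPM in NK scramble against 95.1 and 98.2 CPM in NK shADAR1, TBK1 at 46.0 and 29.2 CPM against 41.2 and 43.3 CPM, and IKBKE at 27.3 and 36.3 CPM against 39.4 and 38.2 CPM, with log2 fold changes of -0.05, 0.17 and 0.29. The abundant PCBP2 and HSP90AA1 had log2 fold changes of 0.0077 and 0.0026.

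**Figure D4:**
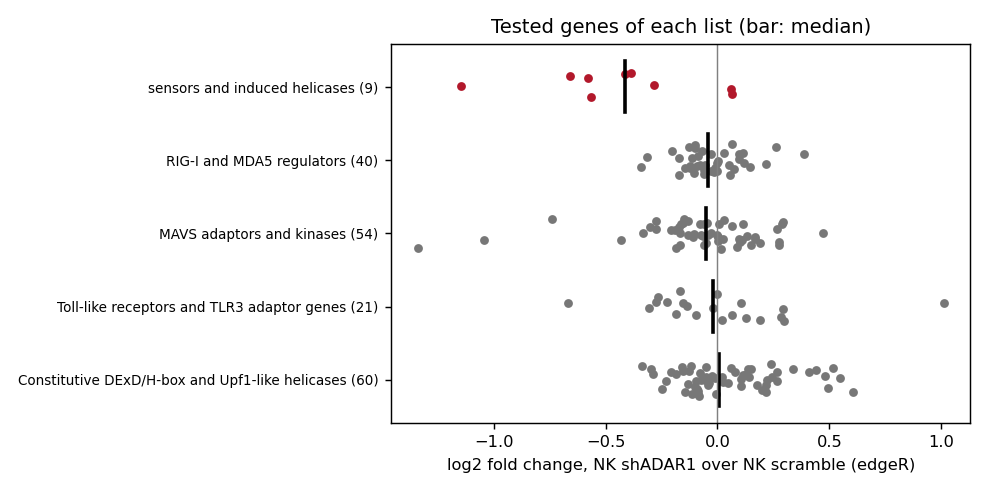
The log2 fold change, NK shADAR1 over NK scramble from edgeR, of each tested gene of the set (red) and of 4 lists of related genes (grey). The median of each is shown as a bar, and the number of tested genes is in brackets. The set has a median of -0.41, while the medians of the 4 other lists plotted lie between -0.05 and 0.01.

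Of 32 Toll-like receptor and TLR3 adaptor genes, 21 were tested, with a median log2 fold change of -0.02. An unadjusted p under 0.05 by edgeR was found for 0 of the 21, against 2.48% of all tested genes. Both knockdown libraries were below both controls for 2 of the 21 (9.52%), against 12.6% of all tested genes, and above them for 4. Among them TLR1, a receptor for lipopeptides, was at 0.927 and 0.814 CPM in NK scramble against 2.31 and 1.21 CPM in NK shADAR1 (log2 fold change 1.01), a low level in every library. TRAFD1 and PELI1, which restrain and transmit Toll-like receptor signals, had log2 fold changes of -0.27 and -0.31, the kinases MAP3K7 and IRAK1 0.30 and -0.14, and the chaperone HSP90B1 0.11. Other helicases of the DExD/H-box and Upf1-like families served as relatives of the members by sequence. They were listed as constitutive from general knowledge, and induction by interferon was not checked for each. Of 62, 60 were tested, 30 lower and 30 higher, with a median of 0.01. Of these 60, 2 had an unadjusted p under 0.05 by edgeR, both higher in NK shADAR1, against 2.48% of all tested genes in either direction. YTHDC2, a helicase that binds methylated RNA, was at 31.9 and 29.1 CPM against 53.1 and 35.9 CPM (log2 fold change 0.55, SE 0.23, unadjusted p = 0.0388), and HELZ at 75.5 and 79.1 CPM against 121 and 94.0 CPM (0.48, SE 0.21, unadjusted p = 0.0429). DHX29 and DDX46 had log2 fold changes of 0.52 and 0.44 (unadjusted p = 0.0682 and 0.0688), and the abundant EIF4A1 and DDX5 -0.12 and 0.41. HELZ and HELZ2 have similar names, but their fitted differences had opposite signs. None of these genes passed the adjusted test.

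Of the factors through which interferon acts, IRF9 was at 47.6 and 41.7 CPM against 38.1 and 13.3 CPM (log2 fold change -0.80, SE 0.38, unadjusted p = 0.0629), lowest in NK shADAR1 replicate 2 like most of the sensors. STAT2 was at 36.7 and 55.8 CPM against 42.7 and 38.5 CPM, so its groups overlapped (log2 fold change -0.19). Neither passed the adjusted test. The interferon genes themselves were nearly silent. Of 21 genes of type I and type III interferons, 12 had 0 counts in every library and the highest count of any was 18. IFNB1, the only one with enough counts for the test, had 3 and 18 counts in NK scramble against 10 and 0 counts in NK shADAR1. IFNL1 had 2 counts in each NK scramble library and 9 and 2 counts in NK shADAR1. At these counts no difference was detectable.

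The genes whose pattern over the 4 libraries was most like that of the tested set were found by distance. It was taken between log2 CPM values, each centred on its own mean, and the mean of the 9 tested genes. The search covered 8483 other genes with a mean of at least 10 CPM. The nearest was HERC5, the interferon-induced ligase that attaches ISG15 to proteins, at a distance of 0.129. It was at 18.7 and 17.8 CPM in NK scramble against 16.3 and 9.59 CPM in NK shADAR1, lowest in NK shADAR1 replicate 2. The centred mean of the 9, by which it was picked, was 0.32 and 0.16 in NK scramble against 0.08 and -0.56 in NK shADAR1. The next was LAG3, an inhibitory receptor of lymphocytes, at 0.211, with 18.3 and 16.1 CPM against 14.1 and 11.1 CPM. TM7SF2, a sterol reductase, ATAD3B, a mitochondrial ATPase, and the readthrough gene CHKB-CPT1B followed at 0.241, 0.246 and 0.246. Of the members, DHX58 lay nearest to the mean pattern, which includes it, at 0.175, and HELZ2 and MAVS farthest at 1.13 and 0.789. DDX58, IFIH1 and ZNFX1 lay at 0.22, 0.23 and 0.30. TRIM25, TLR3 and DDX60 lay at 0.51, 0.54 and 0.59, with 654, 977 and 1544 other genes nearer. The mean is therefore not a pattern that every member follows. With 4 libraries these distances are a description only.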

How the data were processed

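Poly(A)-selected RNA of 4 NK-92 libraries was sequenced, 2 of NK scramble and 2 of NK shADAR1, grouped by the treatment label. For each gene the authors deposited an estimated count, not normalized and often not whole, and an FPKM value, scaled by transcript length and depth. The submitters' processing notes name fastp 0.18.0; the aligner, counting program, genome build and annotation are not given in the sources used here. Of 20323 genes, 20301 matched a symbol.

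Counts were rounded, filtered with filterByExpr of edgeR 4.0.16 in R 4.3.3 (minimum count 10) and TMM-scaled, and groups were compared by quasi-likelihood test without covariates. P-values were Benjamini-Hochberg adjusted over 11810 genes, and genes were called at an adjusted p under 0.05 with a fold change of 1.5 or more. FPKM values served for levels between genes. The SE of a log2 fold change is its size over the square root of F. The members, gene lists and markers were chosen with earlier results of these data known. The lists were written from general knowledge, and the genes named from each are the up to 4 tested genes with the smallest p and the 2 with the highest FPKM, plus ADAR, IRF3, IRF7, TBK1, IKBKE, STAT2 and IRF9. Some items that this rule or the lists hold are not reported here. IFNL1 was chosen after its values were seen. Alternatives were other filters, upper quartile and RLE scaling, DESeq2 1.42.0, no fold change threshold, a replicate block, each library left out, and limma 3.58.1 on log2(FPKM + 0.1) or log2(FPKM + 1). The libraries held 37881704 to 39960491 counts, and precision is limited by the number of libraries, 2 per group. Sequence variants and RNA editing were not analysed here.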

Additional observations from a re-analysis of the deposited data

How the results depend on the processing

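Of 182 alternative values over 13 settings, 161 kept their direction and their side of the threshold or stayed within the limits set for counts. With the replicate number as a replicate block, 13 genes were called, 1 of them in the set (HELZ2, log2 fold change -1.33, edgeR adjusted p = 0.019). In that fit 5 genes of the set had an unadjusted p under 0.05, against 5.77% of all genes (2.48% without the block). The deviations of same-numbered libraries correlated at r = 0.308 over genes, with only 2 pairs. The labels give the libraries of a pair nothing in common but the number, and whether they shared a batch was not tested. With each library left out in turn, 1 to 47 of all genes and 0 to 1 of the sensors were called (HELZ2 without NK shADAR1 replicate 1, -2.16), 0 to 5 sensors had an unadjusted p under 0.05, and their median log2 fold change ran from -0.71 to -0.19. MAVS ran from -0.032 (without NK scramble replicate 1) to 0.15 and TLR3 from -0.38 to 0.40, with TLR3 at -0.13 without NK scramble replicate 2. Without a filter beyond 1 count in any library, 4 genes of the set had an unadjusted p under 0.05, against 2.76% of all genes. With limma on log2(FPKM + 1), 1 did, against 2.46%. The leave-one-out fits rest on fewer libraries, and for the other settings the cause was not tested. DESeq2 called 0 of 15605 genes, with 289 at an unadjusted p under 0.05. With 2 libraries per group the spread is poorly known, and for DDX60L and the interferon genes counts are also too few.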
